A study of Mus musculus with 30 samples.

Results

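The 41 genes described here encode the contractile apparatus of skeletal muscle and the proteins that supply it with calcium, oxygen and ATP. They were taken by name from the annotation of the array, which carried 74 probes for them among 41174 non-control probes of 28146 gene or transcript names, and all 41 genes had at least 1 probe. Their transcripts were measured in the whole eye and in a block of hypothalamic tissue of male adult mice that lacked Period3 (Per3-/-) and of their wild-type (WT) littermates on a C57BL/6J background. The Per3-/- allele is a germline disruption, so it was present in every cell of the eye, the brain and the muscles. Every mouse, of either genotype, had been exposed to 17 ultradian cycles of 3.5 h of light and 3.5 h of darkness before tissue was taken in the light. There were 7 WT and 7 Per3-/- eyes and 8 WT and 8 Per3-/- hypothalamic blocks. An eye and a block with the same genotype and replicate number in the labels were taken as those of the same mouse, which gave 14 mice with both.

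Skeletal muscle shortens when myosin heads of the thick filament pull on the actin of the thin filament, a reaction that troponin and tropomyosin permit only when calcium is released from the sarcoplasmic reticulum. Fast and slow fibres use different genes for the same part, so that fast fibres carry Myh1, Myh2 or Myh4 with the fast troponins Tnnt3, Tnni2 and Tnnc2, and slow fibres carry Myh7 with Tnnt1, Tnni1 and Tnnc1. The extraocular muscles insert on the globe and are known for an unusual mixture of myosins that includes Myh13, which few other muscles make. How much of these muscles stayed on each dissected eye is not given in the sources used here.

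Levels are given as the log2 of the background-subtracted signal of a probe relative to the 75th percentile of its own array, so that 0 is the signal that 75% of probes do not exceed, and 1 unit is a doubling. Because probes differ in how strongly they bind, each level is compared between samples and not with another probe. The 75th percentile lay between 1192 and 2253 intensity units over the 30 arrays, and 67.9% to 80.7% of probes were well above background, a flag set by the scanner software. No member probe was saturated. The only Per3 probe read -3.20 ± 0.39 (SD) in the 7 WT eyes and -3.65 ± 0.52 in the 7 Per3-/- eyes, and -3.49 ± 0.15 and -4.00 ± 0.21 in the hypothalamus, with limma adjusted p-values of 1 and 0.0678. The allele carries a cassette in place of an early exon, and since the place of the probe relative to it was not checked, this probe does not settle the labels.

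The fibre types were told apart by probes for closely related genes, so the starts of the probes are shown for the myosins and for the gene whose probes disagreed most, Tpm1. The first 30 of 60 bases of each are given 5′ to 3′ as deposited in the array annotation, and the positions are those of its mm9 build. No bases are in capitals, as no motif is marked.
Myh1: ggaggttcacaccaaaatcataagcgaaga
Myh2: cgcctgtgtgattctattccatcctgttgt
Myh4: gaagaataatccatctttctgttgagaggt
Myh7: cctggagcctttgcaacagccctttaggtg
Myh13: ctggaaaaatccagagtgacattccagtta
Tpm1 variant 1: atcagcgaggagctggaccacgctctcaac
Tpm1 variant 3, first probe: gaagtatgaagaggtggcccgtaagctggt
Tpm1 variant 3, second probe: cttcatagagtttaggcatgcagtttgctt
Tpm1 variant 9: cctaacatcttcataacctgtgtagttgtt
Over the whole 60 bases, the longest run shared by any 2 of these 5 myosin probes was 8 bases among 10 pairs. The Myh1, Myh2, Myh4 and Myh13 probes lie on the plus strand of 1 chromosome, at chr11:67037938-67037997, chr11:67010952-67011011, chr11:67073834-67073893 and chr11:67148210-67148269, whereas the Myh7 probe lies on the minus strand at chr14:55589526-55589585. The Tpm1 variant 1 probe crosses an exon junction on the minus strand, between chr9:66875959 and 66877514, and the Tpm1 variant 9 probe lies at chr9:66871867-66871926. The second Myh7 probe shares 55 bases with the first, so the pair counts as 1 measurement.

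In the eye, 71 of the 74 member probes were well above background on all 14 arrays, as were 27927 of all 41174 probes. The exceptions were the Myh13 probe, above background in 11 eyes, and 1 of 6 Neb probes and 1 of 2 Myoz2 probes, which were above background in none. Among the thick filament genes, the probe of Myh4, the myosin of the fastest fibres, ranged from 6.23 to 7.49 in WT eyes (median 7.32) and from 6.14 to 7.67 in Per3-/- eyes (median 7.12). Myh1 ranged from 4.17 to 6.05 (median 5.51) in WT and from 4.61 to 6.15 (median 5.20) in Per3-/- eyes. Myh2, the myosin of fast oxidative fibres, ranged from 4.74 to 5.92 (median 5.64) and from 4.87 to 6.13 (median 4.99). The genotypes overlapped over most of their range for all 3 fast myosins.

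Myh7, the slow and cardiac beta myosin, ranged from 1.18 to 3.05 in WT eyes (median 2.27) and from 1.13 to 3.02 in Per3-/- eyes (median 2.11). Myh13, the extraocular myosin, had the widest spread of any reported member probe, with an SD of 1.07 over the 14 eyes. It read from -7.02 to -4.25 in WT (median -5.81) and from -6.88 to -3.82 in Per3-/- eyes (median -5.12), and it was not well above background in eyes WT 3, WT 4 and Per3-/- 4. Mylpf, the fast regulatory light chain, ranged from 4.72 to 5.81 (median 5.37) in WT and from 4.91 to 6.06 (median 5.43) in Per3-/- eyes. Myl2, its slow and cardiac counterpart, ranged from -0.06 to 1.21 (median 0.11) and from -0.23 to 1.06 (median 0.35). In none of these genes did the genotypes separate.

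Of the thin filament genes, Acta1, the skeletal alpha-actin, ranged from 4.78 to 6.12 in WT eyes (median 5.44) and from 5.07 to 6.17 in Per3-/- eyes (median 5.61). The fast troponins Tnnt3 and Tnni2 bind tropomyosin and inhibit actin, respectively. Tnnt3 ranged from 3.50 to 4.91 (median 4.26) in WT and from 3.85 to 5.09 (median 4.18) in Per3-/- eyes. Tnni2 ranged from 6.75 to 7.76 (median 7.45) and from 6.99 to 8.03 (median 7.37). Their slow counterparts were measured in every eye as well. Tnnt1 ranged from 2.89 to 3.58 (median 3.08) in WT and from 2.69 to 3.58 (median 3.09) in Per3-/- eyes. Tnni1 ranged from -0.27 to 0.98 (median 0.08) and from -0.39 to 0.96 (median 0.10). Tpm1, which covers the myosin sites on actin, ranged with its variant 1 probe from 4.56 to 5.76 (median 5.29) and from 4.92 to 6.09 (median 5.36). The ranges of the genotypes overlapped for each of these thin filament genes.

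Titin (Ttn), the elastic filament that spans from Z-disc to M-line, ranged from 0.37 to 1.77 in WT eyes (median 1.39) and from 0.75 to 1.88 in Per3-/- eyes (median 1.05). Desmin (Des), the intermediate filament around the Z-discs, ranged from 0.76 to 1.98 (median 1.45) and from 0.97 to 2.26 (median 1.35). The calcium handling genes comprise the release channel Ryr1, the pump Atp2a1 that returns calcium to the reticulum, and the store protein Casq2. Ryr1 ranged from 0.22 to 1.92 (median 1.41) in WT and from 0.59 to 2.11 (median 1.15) in Per3-/- eyes. Atp2a1 ranged from 2.53 to 4.06 (median 3.50) and from 2.69 to 4.21 (median 3.55). Casq2, the slow and cardiac calsequestrin, ranged from -1.79 to -0.70 (median -0.89) and from -1.56 to 0.11 (median -0.88). By the reported probes, eye Per3-/- 8 held the highest value of Des, Ryr1, Atp2a1 and Casq2, and eye Per3-/- 5 that of Ttn, while eye WT 4 held the lowest value of all 5. Other probes of Ttn and Ryr1 did not all rank the eyes in this way. Another Ryr1 probe, well above background in all 14 eyes, was highest in WT 3 (0.75) and read -0.48 in Per3-/- 8. Some other Ttn probes were lowest in WT 4 as well, and some in WT 3, WT 8 or Per3-/- 6.

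Creatine kinase (Ckm) regenerates ATP during contraction, myoglobin (Mb) stores oxygen, and Pygm breaks down glycogen. Ckm ranged from 3.19 to 4.63 in WT eyes (median 3.79) and from 3.48 to 4.62 in Per3-/- eyes (median 3.88). Mb ranged from 5.10 to 6.56 (median 5.66) and from 5.23 to 6.87 (median 5.91). Pygm ranged from -0.13 to 1.12 (median 0.56) and from 0.08 to 1.25 (median 0.60). Within each genotype the values of each gene spread over more than 1 log2 unit, which was more than the difference between the genotype medians.

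The eye was then compared with the hypothalamus of the same mice. Of the 74 member probes, 69 were higher in the eye at an adjusted p under 0.05 (limma on the differences within 14 mice), against 45.2% of all probes that were called higher in the eye. A further 3 member probes were lower in the eye, against 36.0% of all probes, and 2 did not pass, namely the Neb and Myoz2 probes that were not well above background in any eye. The median difference over the 74 probes was 5.40, and over all 41174 probes it was 0.15. All arrays of 1 tissue shared 4 slides that held none of the other, so tissue and slide cannot be told apart, and in a bulk sample fewer muscle cells and less RNA per cell cannot be told apart either.

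**Figure D1:**
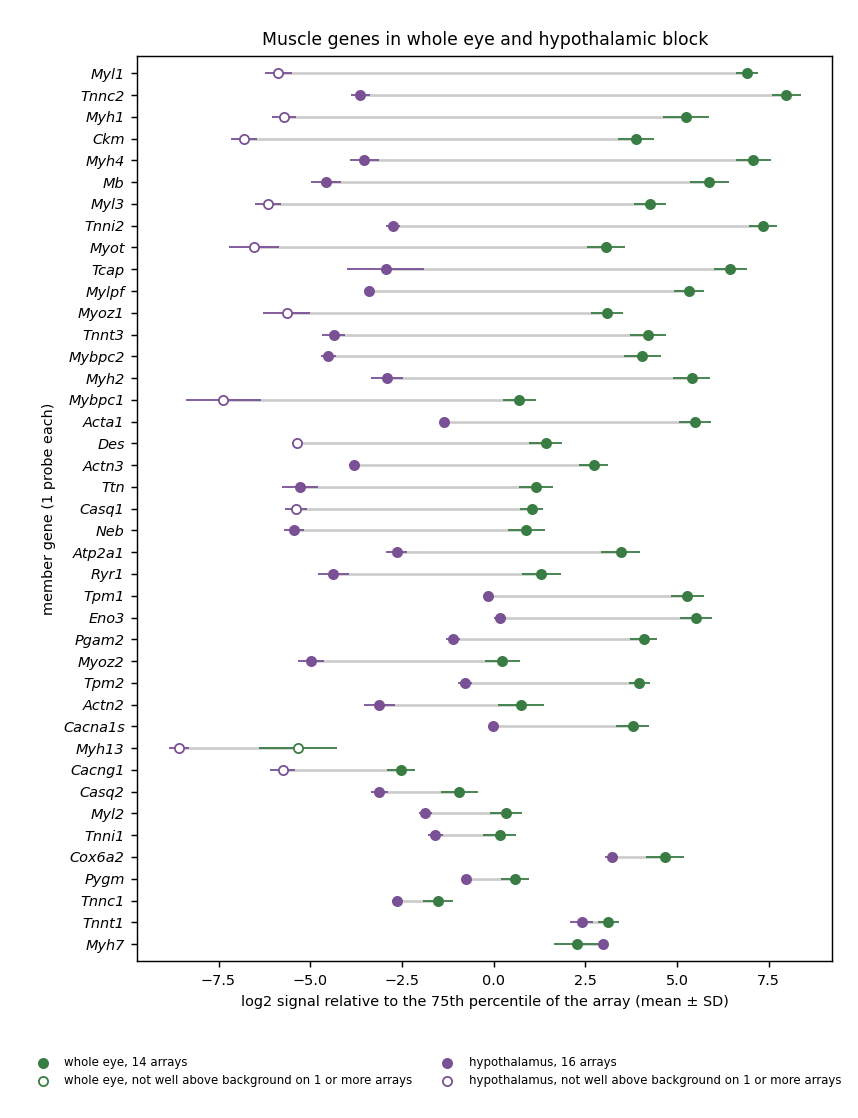
Log2 signal relative to the 75th percentile of the array for the reported probe of each of the 41 muscle genes in 14 whole eyes (green) and 16 hypothalamic blocks (purple), as mean and SD, sorted by the difference. Open circles mark probes not well above background on at least 1 array of the tissue. The eye lies to the right for 40 of 41 genes, and Myh7 at the bottom is the exception.

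By 1 reported probe a gene, 40 of 41 genes were called higher in the eye and 1 lower. The reported probe is the one with the highest mean signal in the eye, a choice that uses the eye values and can enlarge the difference of a gene with several probes. Beside the reported probe of Myh1 with a difference of 10.89, another gave 4.76, and beside that of Myl3 with 10.40 the other gave 3.22. The remaining probe with the name Myh1 gave 6.83, but it lies on the opposite strand, so it was not taken as a further measurement of Myh1. It was well above background in all 14 eyes and in none of the 16 blocks, and it stays among the 74 member probes. The largest differences were those of Myl1, the fast essential light chain, of Tnnc2, the calcium-binding subunit of fast troponin, and of Myh1. Myl1 was between 6.38 and 7.36 in the eyes and between -6.48 and -5.01 in the hypothalamic blocks, where 13 of 16 arrays were well above background. The difference was 12.72 ± 0.11 (SE), a 6735-fold higher signal (limma adjusted p = 6.48e-19). Tnnc2 differed by 11.56 ± 0.11 (3011-fold, limma adjusted p = 9.89e-19) and Myh1 by 10.89 ± 0.14 (1894-fold, limma adjusted p = 1.55e-17), each in 14 of 14 mice.

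Acta1 read between -1.61 and -1.16 in the 16 hypothalamic blocks, well above background on every array, and was 114-fold higher in the eye (6.84 ± 0.14, limma adjusted p = 1.75e-15). Ckm was well above background in 3 of 16 blocks and read between -7.45 and -5.96 in all 16, against 3.19 to 4.63 in the eyes, and no fold is given because most of its hypothalamic values were not well above background. Myh13 was well above background in none of the 16 blocks. Its mean signal was at least 2.33-fold higher in the eye, a bound taken against the lowest signal that the software called well above background on each hypothalamus array. The bound itself was not tested. The values as read differed by 3.25 ± 0.30 on the log2 scale (limma adjusted p = 8.34e-08). They include the blocks and the 3 eyes that were not well above background.

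By role, all 10 thin filament, 8 Z-disc and titin, 6 calcium handling and 6 energy and oxygen genes were called higher in the eye, with median differences of 5.90, 6.67, 4.74 and 5.30. Of the 11 thick filament genes, 10 were higher and Myh7 was lower, with a median of 8.56. The 14 fast-fibre members were called higher without exception, by 5.20 to 12.72 (median 8.6). Of the 9 slow or cardiac members, 8 were called higher and their differences ran from -0.71 for Myh7 to 10.40 for Myl3, the slow essential light chain, with a median of 2.17. The fast and slow lists were compared as counts and medians, and the difference between them was not tested.

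The smallest differences were those of 3 slow-fibre genes. Myh7 read between 2.86 and 3.21 in the WT blocks (median 3.01) and between 2.68 and 3.12 in the Per3-/- blocks (median 2.98). In the eye it was lower by 0.71 ± 0.17 on the log2 scale (limma adjusted p = 0.00135), and the eye held the higher value in 3 of 14 mice. Its SD was 0.62 over the eyes and 0.12 over the blocks, and the 2 overlapping Myh7 probes differed between the tissues by -0.71 and -0.80. Tnnt1, the slow troponin T, read between 2.01 and 2.98 in the blocks and was 1.65-fold higher in the eye (0.72 ± 0.11, limma adjusted p = 1.99e-05, 13 of 14 mice). Tnnc1, the slow and cardiac troponin C, was 2.13-fold higher (1.09 ± 0.11, limma adjusted p = 2.41e-07, 14 of 14 mice).

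The 4 probes of Tpm1 gave differences of opposite sign. This gene makes striated muscle, smooth muscle and non-muscle tropomyosins by alternative exons. The variant 1 probe was 42.8-fold higher in the eye (5.28 ± 0.46, SD, n = 14 eyes, against -0.16 ± 0.14, n = 16 blocks). The first variant 3 probe, which crosses another junction, was 11-fold higher (4.86 ± 0.43 against 1.41 ± 0.14), and the second was 1.36-fold higher (2.24 ± 0.10 against 1.80 ± 0.05). The variant 9 probe was lower in the eye by 2.57 on the log2 scale (-2.89 ± 0.16 against -0.32 ± 0.10), and its groups did not overlap. The first variant 3 and the variant 1 probe also had the wide spread over eyes that other members had, with SDs of 0.43 and 0.46, whereas the second variant 3 and the variant 9 probe had SDs of 0.10 and 0.16.

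The level of muscle in each eye was summarised as the mean, over the 40 genes with a reported probe well above background in all 14 eyes, of the difference from the mean of the gene over eyes. The WT eyes read 0.11 (mouse 1), -0.52 (mouse 3), -0.65 (mouse 4), -0.05 (mouse 5), 0.45 (mouse 6), 0.44 (mouse 7) and -0.03 (mouse 8). The Per3-/- eyes read -0.39 (mouse 2), 0.37 (mouse 3), -0.35 (mouse 4), 0.24 (mouse 5), -0.23 (mouse 6), -0.07 (mouse 7) and 0.70 (mouse 8). The highest eye, Per3-/- 8, was therefore 2.55-fold above the lowest, WT 4. In eye Per3-/- 8, 27 of the 40 genes reached their highest value, and in eye WT 4, 21 of the 40 genes had their lowest.

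**Figure D2:**
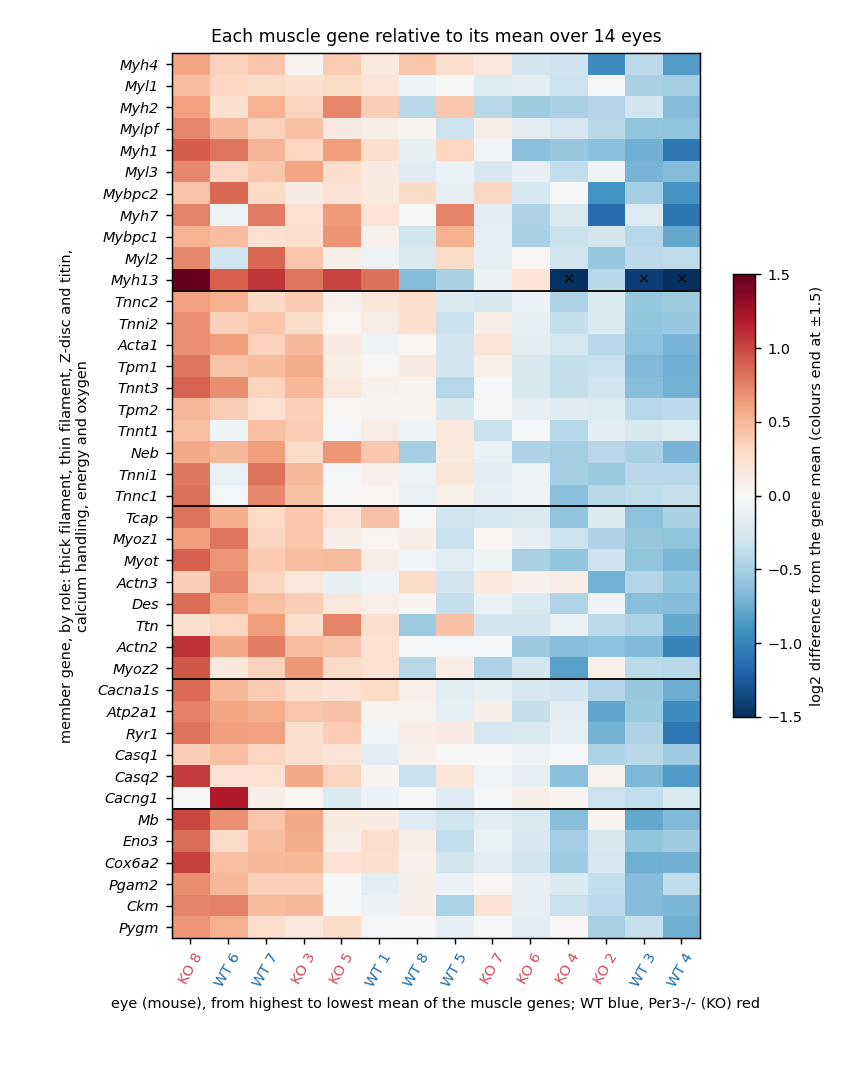
Log2 difference of each of the 41 muscle genes (rows, grouped by role) from its mean over 14 eyes (columns, sorted by the muscle level of the eye; WT labels blue, Per3-/- labels red). Crosses mark spots not well above background. Columns run from red on the left, where Per3-/- 8 stands, to blue on the right, where WT 4 stands, with both genotypes on either side.

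The 40 genes varied together. All 780 pairwise correlations over the 14 eyes were positive, with a median Pearson r of 0.81, and 746 were over 0.5. These genes share the eye, the array and its scaling, so the correlations describe these eyes. The SD over eyes had a median of 0.45 for the 40 genes. It had a median of 0.18 for all 27877 probes that were well above background in every eye and had no missing value. All 40 genes were above the latter median. Each gene was also set against the mean of the other 39. The closest was Actn2, a Z-disc actinin (r = 0.99), and the least close was Cacng1, a subunit of the muscle calcium channel (r = 0.48). Cacng1 read -1.34 in eye WT 6 and between -2.90 and -2.44 in the 13 other eyes.

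The fast and slow lists moved together over the eyes. The level of the 14 fast-fibre genes ran from -0.67 in WT 4 to 0.62 in Per3-/- 8, and that of the 9 slow or cardiac genes from -0.57 to 0.75 in the same eyes. The difference of fast minus slow was largest in WT 6 (0.49) and lowest in WT 5 (-0.33), which were on the same slide. In the heat map, Myh2, Myh7, Ttn and Mybpc1, a slow myosin-binding protein, were high in eye WT 5 while Ckm and Tnnt3 were below their means. Ttn and Ckm are in neither list, and neither list moved as a whole in that eye. The fast genes Myh1 (5.56, mean over eyes 5.24) and Myh4 (7.32, mean 7.07) were also above their means there. The slow gene Myl3 was below its mean (4.17, mean 4.26).

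**Figure D3:**
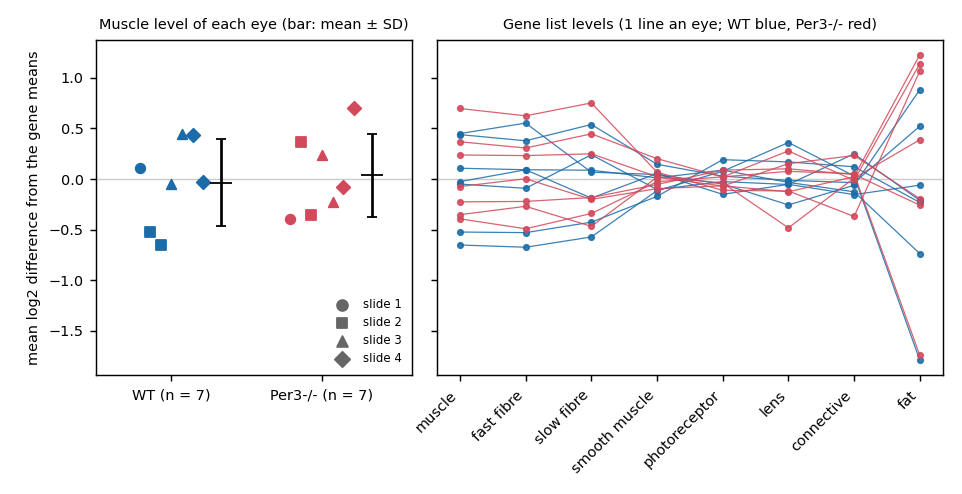
Left, muscle level of each eye (mean log2 difference of 40 genes from their means over eyes) by genotype, with the slide as the symbol and the mean and SD as a bar. Right, the levels of the muscle, fast-fibre, slow-fibre, smooth muscle, photoreceptor, lens, connective tissue and fat lists, with 1 line an eye. Muscle spans -0.65 to 0.70, photoreceptor genes span -0.15 to 0.19 and fat genes span -1.79 to 1.23.

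Lists of other tissues that an eye sample can hold were read in the same way. The 11 photoreceptor genes spanned 0.34 log2 units over the eyes, the 10 smooth muscle genes 0.37, the 10 connective tissue genes 0.62 and the 10 lens genes 0.84, against 1.35 for the muscle genes. The 8 pigment epithelium genes spanned 0.40, the 10 cornea and conjunctiva genes 0.90, the 10 neuronal genes measured of 12 listed 0.53, and the 2 lacrimal gland genes measured of 10 listed 1.02. Fat genes spanned more, with 3.02 log2 units over 9 genes, and were lowest in WT 4, the eye with the lowest muscle level, and read 1.07 in Per3-/- 8. Lens genes were highest in WT 4. The part of other tissue in the muscle levels was not tested. Set against the 11 photoreceptor genes of the same array, the muscle level still ran from -0.73 in WT 4 to 0.81 in Per3-/- 8.

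Acta1 was compared with 10 other genes over the 14 eyes, 8 of them members, with Benjamini-Hochberg adjustment over the 10 permutation tests. Ckm followed it most closely (Pearson r = 0.99, Spearman rho = 0.99, both p = 1e-05 and adjusted p = 3.33e-05, permutation test), where 1e-05 is the smallest p that 100000 permutations can give. Tnnt3 (r = 0.98, rho = 0.96) and the variant 1 probe of Tpm1 (r = 0.98, rho = 0.96) had the same permutation p for r and for rho. Without the 2 eyes farthest from the median, WT 4 and Per3-/- 8, r was 0.98, 0.97 and 0.96 for these 3 genes, and with the slide means taken out it was 0.98 for each.

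Myh13, which was not well above background in 3 eyes, had r = 0.85 and rho = 0.82 (permutation p = 2e-04 and 0.00051, adjusted 5e-04 and 0.00128). Myh4 had r = 0.79 and rho = 0.75 (permutation p = 0.00078 and 0.00268, adjusted 0.00156 and 0.00536), and without the 2 eyes r was 0.76 for Myh13 and 0.67 for Myh4. Within slides they were 0.88 and 0.66. Myh2 (r = 0.64, rho = 0.58, permutation p = 0.017 and 0.0309, adjusted 0.0269 and 0.0441), Myh7 (r = 0.61, rho = 0.64, p = 0.0198 and 0.0152, adjusted 0.0269 and 0.0253) and Tnnt1 (r = 0.61, rho = 0.55, p = 0.0215 and 0.046, adjusted 0.0269 and 0.0511) were looser. Without the 2 eyes their r fell to 0.48, 0.40 and 0.48 with permutation p-values of 0.115, 0.199 and 0.114. By r, these 3 relations thus passed the test only with these 2 eyes, although r stayed positive. By rho, Tnnt1 did not pass after adjustment even with all eyes. Within slides they were 0.63, 0.46 and 0.54.

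Outside the members, Acta2, the smooth muscle actin, had r = -0.30 and rho = -0.38 (permutation p = 0.304 and 0.181, with the same adjusted values), 0.01 without the 2 eyes and 0.16 within slides.

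As these genes varied together over the eyes, the promoters of Acta1 and Ckm are given, from RefSeq on build GRCm38.p6. They are the 250 bases before the start of the gene, read 5′ to 3′ along the gene, with capitals for the motifs found. The motifs searched on both strands were the E-box CANNTG, which myogenic factors bind, the TATA box TATAAA, and, by name, the CArG box and the MEF2 box.
Acta1: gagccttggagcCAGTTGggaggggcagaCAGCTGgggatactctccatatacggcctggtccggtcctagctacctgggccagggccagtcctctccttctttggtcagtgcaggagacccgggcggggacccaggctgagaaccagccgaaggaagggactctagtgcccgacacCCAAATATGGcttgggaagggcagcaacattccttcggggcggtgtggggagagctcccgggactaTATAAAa
Ckm: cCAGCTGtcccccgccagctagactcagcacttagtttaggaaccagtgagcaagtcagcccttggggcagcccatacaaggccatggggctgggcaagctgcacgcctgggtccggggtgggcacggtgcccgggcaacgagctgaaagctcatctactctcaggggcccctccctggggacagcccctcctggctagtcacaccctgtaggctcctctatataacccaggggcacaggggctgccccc
The Acta1 window, chr8:123894776-123895025 on the minus strand, held 2 E-boxes, 1 CArG box, which is the run of 10 capitals, and 1 TATA box. The Ckm window, chr7:19410844-19411093 on the plus strand, held 1 E-box and none of the other 3. The table held 37 promoters of 32 members. An E-box stood in 34 of the 37 and in 66.2% of all 32851 promoters, a TATA box in 6 and in 12.4%, a CArG box in 3 and in 1.47%, and a MEF2 box in 6 and in 2.92%. A match is a stretch of letters and was not tested for binding.

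Whether the absence of Per3 altered muscle transcripts in the eye was asked next. None of the 74 member probes was called between genotypes at an adjusted p under 0.05, against 0.0194% of all probes (8 of 41174), and none had an unadjusted p under 0.05, against 1.80% of all probes. The median difference of Per3-/- minus WT was 0.05 over the 74 probes, of which 51 were positive, and 0.0002 over all probes, of which 20625 of 41174 were positive. The muscle level was -0.04 ± 0.43 (SD, n = 7) in WT and 0.04 ± 0.41 (n = 7) in Per3-/- eyes, a difference of 0.07 that is smaller than either SD.

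**Figure D4:**
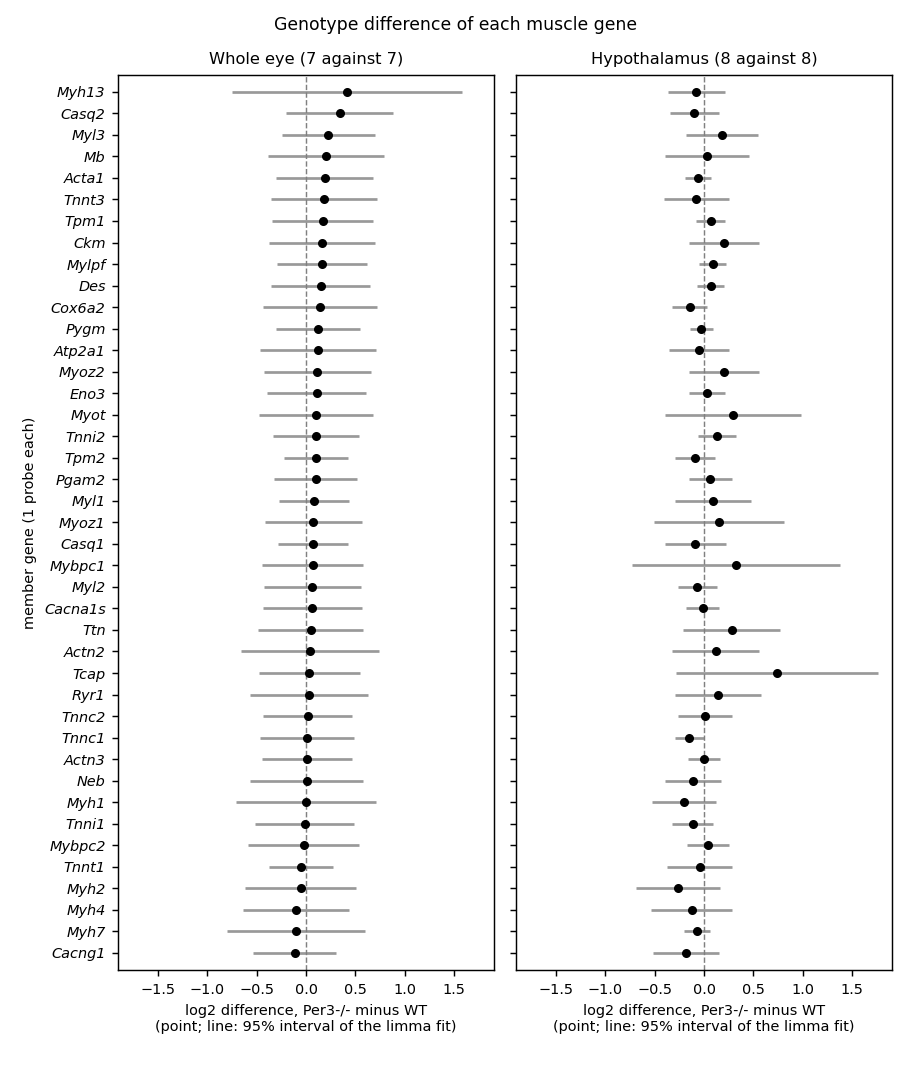
Log2 difference of Per3-/- minus WT for the reported probe of each of the 41 muscle genes, in the whole eye (left, 7 against 7 arrays) and the hypothalamic block (right, 8 against 8 arrays), with the 95% interval of the limma fit. Every eye interval holds 0, with that of Myh13 the widest, and those of Mybpc1 and Tcap are the widest in the hypothalamus.

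By their reported probes, the largest eye differences among members well above background in every eye of a genotype were those of Casq2, Myl3 and Mb. Of the other probes, 1 of Cacna1s differed by 0.25 (95% interval -0.28 to 0.79), more than Myl3 and Mb did. Casq2 differed by 0.34 ± 0.25 (SE, 95% interval -0.20 to 0.88), Myl3 by 0.23 ± 0.22 (-0.24 to 0.70) and Mb by 0.20 ± 0.27 (-0.39 to 0.79), with limma adjusted p-values of 1. For Acta1 the difference was 0.19 with an interval from -0.30 to 0.67, and for Ckm it was 0.16 with an interval from -0.38 to 0.70. With 1 eye left out, the difference ran from 0.09 to 0.31 for Acta1, from 0.05 to 0.30 for Ckm, from 0.05 to 0.34 for Mb, from 0.12 to 0.31 for Myl3 and from 0.19 to 0.47 for Casq2. Exact two-sided permutation tests over the 3432 arrangements of the eyes gave p = 0.442 for Acta1, 0.541 for Ckm, 0.890 for Myh2, 0.716 for Myh4, 0.750 for Myh7, 0.484 for Myh13, 0.753 for Tnnt1 and 0.507 for Tnnt3.

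The genotypes differed by slide. Per3-/- minus WT for the muscle level was -0.50 on slide 1 (1 eye each), 0.60 on slide 2, -0.19 on slide 3 and 0.10 on slide 4 (2 eyes each), so its sign was not shared by the slides. With the replicate number as a block, which leaves 12 eyes, the median over the 74 probes was 0.15 and 66 were positive, and again no member was called. The same 12 eyes without a block also gave a median of 0.15, with 67 positive. Leaving out eye WT 4, WT 3 or Per3-/- 8 made the median negative, at -0.04, -0.01 and -0.02.

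In the hypothalamus, 45 of the 74 member probes were well above background on all 16 arrays, 18 on some and 11 on none. Of all 41174 probes, 27164 were above background on all 16 and 7511 on none, so the members were near the share of the whole array. Cox6a2, Myh7, Tnnt1, Eno3 and Cacna1s are described because their reported probes were the brightest there, which gives no order of their transcripts. Cox6a2, the heart and muscle subunit of cytochrome c oxidase, read from 3.01 to 3.41 in WT (median 3.28) and from 2.74 to 3.39 in Per3-/- blocks (median 3.16). Eno3, the muscle enolase, read from 0.05 to 0.30 (median 0.16) and from -0.05 to 0.72 (median 0.16). Cacna1s, the voltage sensor of skeletal muscle, read from -0.19 to 0.25 (median -0.04) and from -0.23 to 0.17 (median 0.01). Their ranges over the 16 blocks were narrow beside those over the eyes, with SDs of 0.18, 0.17 and 0.15 against 0.52, 0.44 and 0.44.

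No member probe was called between genotypes in the hypothalamus, against 0.0413% of all probes (17 of 41174), and 1 had an unadjusted p under 0.05, against 2.81% of all probes. That probe was Tnnc1, lower in Per3-/- blocks by 0.15 on the log2 scale (unadjusted p = 0.0451, limma adjusted p = 0.989), named after its value was seen. The median over the 74 probes was 0.01, and that over all probes was -0.02. Among members well above background in every block of a genotype, the largest differences were those of Tcap (0.73, 95% interval -0.29 to 1.76), Ttn (0.28, -0.21 to 0.77) and Myh2 (-0.26, -0.69 to 0.17).

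The reported probes with the widest range over the blocks were those of Mybpc1, Tcap and Myoz1, and all 3 were set by 1 or 2 mice. Tcap, the titin cap of the Z-disc, read -0.20 in Per3-/- 5 and -0.56 in Per3-/- 7 and between -3.93 and -2.86 in the 14 other blocks. Mybpc1 read -4.12 in Per3-/- 7 and was well above background on that array alone, at -8.47 to -6.82 in the others. Myoz1, a Z-disc protein of fast fibres, read -3.82 in Per3-/- 7 against -6.62 to -5.23, and its second probe read -4.33 there, also the highest. Without the blocks of both Per3-/- 5 and 7, the Tcap difference between genotypes was 0.0027 in place of 0.73, and no member was called.

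**Figure D5:**
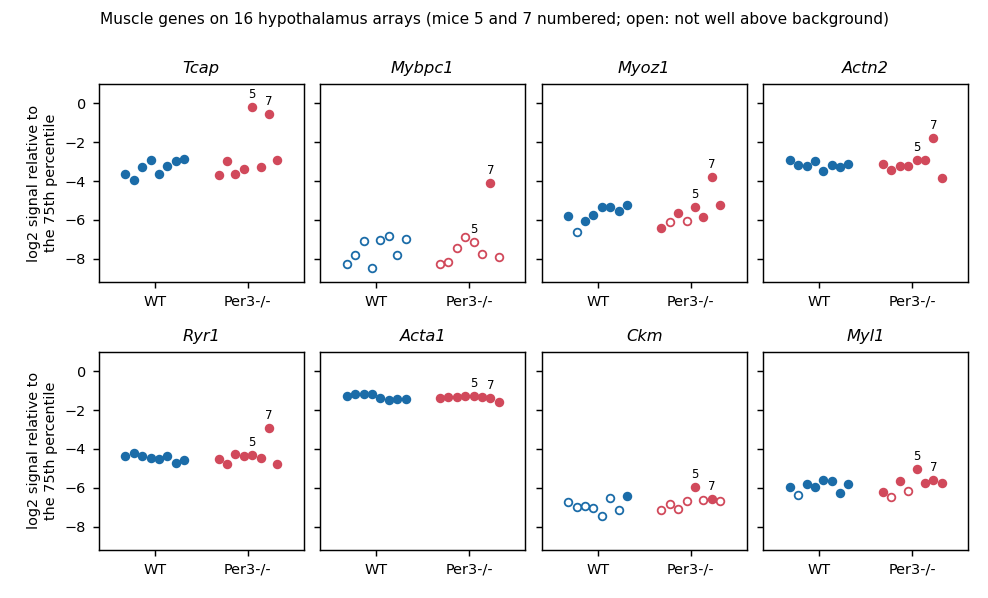
Log2 signal relative to the 75th percentile for 8 muscle genes on the 16 hypothalamus arrays, with WT in blue and Per3-/- in red, mice in order of their numbers, Per3-/- 5 and 7 numbered, and open circles for spots not well above background. Tcap is high in both numbered mice, Mybpc1, Myoz1, Actn2 and Ryr1 in mouse 7, and Acta1 in neither.

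On the array of Per3-/- 7, 8 of the 63 member probes measured in the hypothalamus (12.7%) were over 1 log2 unit above the median of the 16 blocks, against 2.95% of 33663 probes measured in any block. They belonged to Actn2, Mybpc1, Myh2, Myoz1, Ryr1 and Tcap, with both Myoz1 probes and 2 of 3 Ryr1 probes among them. The other 3 Myh2 probes were not among them. The Mybpc1 probe counted as measured only through the array of Per3-/- 7, and probes of 1 gene on 1 array are not independent. The difference between the 2 shares was not tested. Acta1 read -1.39 on that array, Ckm -6.59 and Myl1 -5.60, inside the ranges of the other blocks. Of 48 other striated muscle genes, 4 were over 1 unit above their median in Per3-/- 7 (Trdn, Kbtbd5, Asb11 and Tnni3) and 27 were below it. Trdn, which anchors calsequestrin to the release channel, read -1.31 in Per3-/- 7 against a median of -8.12, and Mef2c, a regulator shared by muscle and neurons, read 2.01 against 0.80. In Per3-/- 5, 2 of the 63 member probes (3.17%), those of Tcap and Ttn, were over 1 unit above the median. Of the 33663 probes measured in any block, 0.82% were, and this difference was not tested either. Tcap was 3.07 above the median of the other blocks. Of the 48 other striated muscle genes, 5 were over 1 unit above their median in Per3-/- 5 and 6 were below it. These 5 were the cardiac troponin I gene Tnni3 (2.25 above), Trdn (2.23), Csrp3 (1.92), Cav3 (1.59) and Myom2 (1.20).

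The genotype difference was also compared between the tissues. No member probe was called for a different genotype effect in the eye and the hypothalamus, against 0.00% of all probes (0 of 41174), and no member had an unadjusted p under 0.05, against 2.0% of all probes (823 of 41174). The estimate for Tcap was -0.77 and that for Casq2 was 0.47, with unadjusted p-values of 0.196 and 0.117 in the limma fit over 14 mice.

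Genes of related pathways that are not members were compared between the tissues too, where 45.2% of all probes were called higher in the eye and 36.0% lower. Of 49 other striated muscle genes, 48 were on the array, 44 were called higher in the eye and 1 lower, with a median of 4.6. Myh8, the perinatal myosin that adult extraocular muscle retains, was 359-fold higher in the eye (7.23 ± 0.51, SD, n = 14, against -1.28 ± 0.26, n = 16), and Myh3, the embryonic myosin, was 588-fold higher (3.64 ± 0.57 against -5.51 ± 0.39). Sln and Smpx, a pump regulator and a small muscle protein, were 23.8-fold and 38.9-fold higher. The gene called lower was the cardiac troponin T gene Tnnt2 (-1.17), and Myh6, Tnni3 and Ankrd2 did not pass.

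Of 15 myogenic regulators, 11 were called higher in the eye and 2 lower, namely Mef2a (-2.33) and Msc (-1.29), and Six4 and Mef2d did not pass. Some calls rest on values near background, as Myf5, called higher, was well above it in 1 eye and no block, and Msc in 5 eyes. Myf6, a myogenic factor of mature fibres, was called higher, with 14 of 14 eyes and 6 of 16 blocks well above background. Tbx1 was 2.0-fold and Mef2c 1.58-fold higher. Of 10 neuromuscular junction genes, 9 were called higher and 1 lower. Clcn1, called higher, was well above background in 3 eyes and no block. Chrne, the adult acetylcholine receptor subunit, was 12.7-fold higher, Chrna1 33-fold and the sodium channel Scn4a 3.28-fold, while Dok7 was lower by 0.78 on the log2 scale. No gene of these 3 lists was called between genotypes in either tissue.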

How the data were processed

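Total RNA of each sample was labelled with Cy3 and hybridised by the authors to 1-colour Agilent whole mouse genome arrays, and 1 eye of each genotype is not analysed here. The deposited scanner files hold spot intensity after the background subtraction of Feature Extraction, and the deposited value table holds log2 values, which differ from log2 signal relative to the 75th percentile minus the median of a probe over its tissue by at most 0.01 for 84.8% (eye) and 91.6% (hypothalamus) of values. Names came from the deposited annotation of the hypothalamus arrays, joined to the eye by probe, and the deposited well above background flags were used as given.

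Here log2 signal minus the 75th percentile of each array was used. Control and outlier spots were left out, spots of a probe were averaged, and 1 of 2220 member values was missing (a Myh1 probe in eye WT 3). The genotypes were compared within a tissue without a block, and the tissues by differences within 14 mice (7 WT and 7 Per3-/-; the blocks of WT 2 and Per3-/- 1 have no eye here), each with limma 3.58.1 in R 4.3.3 on all 41174 probes with Benjamini-Hochberg adjustment. Permutations used scipy 1.17.1, and 1 of the 10 relations with Acta1 is not reported here. The study used unpaired t-tests on GeneSpring values. The fits were tested on simulated data.

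The members, lists and tests were chosen with earlier results of these data known. The probe reported for a gene is that of highest mean signal over the eyes. Named were 21 genes set by name for values by sample, the 3 largest genotype differences in a tissue, the 5 highest and 3 most variable members of the hypothalamus, the 3 largest and 3 smallest tissue differences, and up to 4 genes of each other list. Lists were also set for myogenic regulators, the neuromuscular junction, smooth muscle, photoreceptors, lens, pigment epithelium, cornea, lacrimal gland, fat, connective tissue and hypothalamic neurons.

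In the eye, mice with the same replicate number in the labels deviated together from their group means (correlations from 0.109 to 0.627 over 6 pairs). Each pair shared a slide, and for numbers 4 and 6 the other WT eye of the slide correlated more. Pairing by number therefore cannot be told apart from the slide, and the main fit has no block. The blocked values are given beside the results they change. Replicates are separate mice. The number of arrays limits the precision. Alternatives were quantile normalization, normexp correction (offset 50), a filter on dim probes, the deposited table, the slide or replicate number as a block, the methods' t-test and leaving out each mouse.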

Additional observations from a re-analysis of the deposited data

Results flagged for a closer look

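The reported probes of 31 named genes gave 124 groups by genotype and tissue. In 13 of the 124 groups, 1 mouse stood apart from the others by Dixon's 95% criterion. Of these 13, 12 were in the hypothalamus and 1 in the eye. Chance alone meets the criterion in about 1 of 20 groups. Mybpc1, Tcap and Myoz1 were named for their wide range over the blocks, so that rate is no fair measure for these groups. Hypothalamus Per3-/- 7 stood high for Ryr1 (-2.93, others -4.79 to -4.28), Mybpc1 (-4.12, others -8.28 to -6.89) and Myoz1 (-3.82, others -6.41 to -5.25), and low for Mb (-5.62, others -4.72 to -4.15) and Tnnc1 (-3.05, others -2.77 to -2.56). Hypothalamus Per3-/- 1 stood high for Tnni2 (-2.12, others -2.89 to -2.64) and for Eno3 (0.72, others -0.05 to 0.25). Per3-/- 5 stood high for Ckm (-5.96, others -7.14 to -6.59), where 2 of 8 arrays were well above background. Per3-/- 8 stood low for Acta1 (-1.61, others -1.40 to -1.29). Among WT blocks, mouse 2 stood low for Myh1 (-6.52, others -5.68 to -5.27), mouse 5 for Myh4 (-4.27, others -3.55 to -3.10) and mouse 6 for Cox6a2 (3.01, others 3.25 to 3.41). In the eye, WT 7 stood high for Tnnc1 (-0.80, others -1.9 to -1.45).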

How the results depend on the processing

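No alternative run gave a member called between genotypes, and 72 of 74 members were called between tissues, with 73 by quantile normalization and without Per3-/- 8, and 71 of 71 after the filter on dim probes. Normexp moved the median of all probes to 0.18 in the eye genotype comparison, where that of the members was 0.06, and to 0.36 between tissues, where that of the members was 3.92. The median hypothalamic genotype difference over the 74 probes was -0.10 with normexp correction (all probes -0.08) and ran from -0.02 to 0.02 with 1 mouse left out. In the eye that median ran from -0.04 to 0.13 with 1 mouse left out. With the replicate number as a block the eye median was 0.15 and the hypothalamic median 0.01, and no member was called. The blocked eye fit also drops 2 unpaired eyes. The same 12 eyes without a block, a fit chosen after seeing the data, gave the same median of 0.15 and the same values for Myh2, Myh4 and Myh7. In complete pairs a block leaves a difference of means unchanged, so this sameness was fixed in advance. The move of the median from 0.05 with all eyes came with the 2 dropped eyes. Calls over all probes were 8 with all eyes, 7 with these 12 and 1 with the block, and in the hypothalamus 17 without and 5 with the block. Same-numbered hypothalamic blocks correlated from -0.03 to 0.32. Signs of small, uncalled eye differences turned. In the 12 eyes, with or without the replicate block, Myh2 was 0.075, Myh4 0.066 and Myh7 0.10. With 1 mouse left out, Myh2 ran from -0.18 to 0.032, Myh4 from -0.25 to 0.049, Myh7 from -0.29 to 0.077 and Tnnt1 from -0.13 to 0.021. In the hypothalamus Ttn was -0.012 with normexp, and Tcap ran from 0.40 to 0.90 with 1 mouse left out. The cause was not tested. Leaving out both Per3-/- 5 and 7 and taking the muscle level from all member probes were chosen after seeing the data. Eye Per3-/- 8 was highest and WT 4 lowest in muscle level in all 7 settings, and the genotype difference ran from 0.05 to 0.12. Probes not well above background limit what 29 of the 74 can show in at least 1 hypothalamus array, and the spread of muscle between eyes limits the genotype comparison.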

Other observations

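Outside the 41 genes, those whose level over the 14 eyes was most like the muscle level were Unc45b, a myosin chaperone (Pearson r = 0.99 over 14 eyes), Ehbp1l1 (0.99) and Myom1, an M-line protein (0.99). Dusp27, Lmod3, a nucleator of thin filaments, Hrc, a calcium-binding protein of the reticulum, Alpk3 and Trim54 each had r = 0.98. These values describe genes picked for their likeness from all names measured in every eye, and the arrays and their scaling are shared.

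The 9 fat genes differed between genotypes by 0.46 (-0.23 ± 0.87, SD, in 7 WT and 0.23 ± 1.07 in 7 Per3-/- eyes), with no gene of the list called by limma. They were lowest in eye WT 4 (-1.79) and highest in Per3-/- 7 (1.23), whose muscle level was -0.07.

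In the hypothalamus of Per3-/- 8, the Myoz2 probe that no eye measured read -4.54 and was well above background on that array alone, against -9.16 to -8.13 in the 15 other blocks.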
